A study of Oryza sativa Japonica Group with 24 samples.

Results

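The jasmonate ZIM-domain (JAZ) genes of rice are described here from RNA counts of anthers kept under short-day (SD) or long-day (LD) conditions. The members were the 9 loci listed as JAZ/TIFY genes, taken by locus ID from a count table of 55986 loci. All anthers came from the wild type japonica variety 9522, grown in paddy fields. They were taken at the stage of the first pollen mitosis as judged by anther length, and whether SD and LD anthers matched in stage was not tested. SD plants were shaded with black cloth over the last 2 h of natural daylight, which left a 12 h photoperiod, from panicle initiation until sampling, and LD plants had the natural daylight of about 14 h. Anthers were sampled every 4 h, 3 times by day (08:00 to 16:00) and 3 times by night (20:00 to 04:00), with 2 replicates for SD and 2 for LD at each time, so 24 libraries in 12 groups. The series' design text gives the 14 h of LD as dark, whereas the treatment protocol gives it as light, and the protocol was followed. Whether the replicates came from separate plants is not given beyond their name as biological replicates, and an anther library mixes RNA of pollen, tapetum and wall cells, so fewer cells of a type and less RNA per cell cannot be told apart in any result below.

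JAZ proteins are repressors of the jasmonate response. Each carries a ZIM domain with the TIFY motif, through which it recruits corepressors, and a Jas domain, through which it binds MYC-type transcription factors and, once jasmonoyl-isoleucine is present, the F-box protein COI1, which marks the JAZ protein for breakdown by the proteasome. Many JAZ genes are themselves transcribed in response to jasmonate, so their RNA rises as their proteins are removed. In flowers jasmonate is known for its part in filament elongation, anther opening and pollen maturation.

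The listed names were compared with the RefSeq gene table of another rice assembly (ASM3414082v1), which holds none of the locus IDs, so only chromosomes and gene order could be compared. Of the 9 listed names, 7 lay on the chromosome given in their locus ID. TIFY6b lay on chromosome 9 in RefSeq although its listed locus, LOC_Os03g28940, is on chromosome 3, and TIFY10a lay on chromosome 3 although its listed locus, LOC_Os07g42370, is on chromosome 7. The neighbours on chromosome 3 stood in the order TIFY11a, TIFY11c, TIFY11b in RefSeq, while the list puts TIFY11b before TIFY11c. LOC_Os07g05830, listed as TIFY10b, is annotated in the study's sheets as a zinc-finger protein and not as a ZIM protein. The members are therefore called by locus ID, and a TIFY name is added only for LOC_Os03g08310 (TIFY11a), LOC_Os10g25290 (TIFY11d), LOC_Os08g33160 (TIFY6a) and LOC_Os09g26780 (TIFY10c).

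Library totals ran between 18459126 and 27529649 counts in SD and between 18043740 and 23293969 counts in LD, with at least 1 count on 28171 to 29547 loci. Values below are CPM, the read counts of a locus scaled to a common library size, after correction by trimmed-mean (TMM) factors, which ran from 0.823 in replicate 2 of LD 12:00 to 1.10 in replicate 2 of SD 12:00. A locus was called at a time point when the adjusted p was under 0.05 and the difference at least 2-fold. Of 4 tapetum and anther wall markers (OsABCG15, OsLAP6, HTH1 and WDA1), the summed level was 932 to 2279 CPM in SD and 290 to 957 CPM in LD. In LD, OsABCG15 was at 0.05 to 1.69 CPM and HTH1 at 0.10 to 2.41 CPM, so these 2 of the 4 markers were close to 0 there. OsLAP6 was at 0.24 to 25.7 CPM and WDA1 at 289 to 950 CPM in LD, so the LD sum was mostly WDA1. In SD, WDA1 was at 686 to 1387 CPM, and it was called as higher in SD at 08:00 and 12:00 only. The pollen marker OsMATL was at 0 to 25.7 CPM in SD and at 16.4 to 98.1 CPM in LD. Of all 7 markers, 6 were called at 08:00, 7 at 12:00, 0 at 16:00, 5 at 20:00, 4 at 00:00 and 5 at 04:00. All of them are genes that the study itself names as differing between SD and LD, or as tied to photoperiod, in these same libraries. Many calls among them were therefore likely from the start, and a shift in cell types was not tested. The shares of all loci called at each time are given in the next paragraph. The part of the marker shifts in the JAZ values was not tested.

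Counted over the day, the JAZ members differed between SD and LD in both directions. Of 54 comparisons of a member at a time point, 49 passed the filter on low counts, and 14 of these were called, 5 higher and 9 lower in SD. At least 1 call was made for 8 members, of which 4 were called only as higher and 4 only as lower, and LOC_Os03g28940 was never called. The share of all loci called at 1 or more times is not given here, so these totals have no background beside them. Shares for single times follow below. LOC_Os07g05830, whose annotation is not that of a JAZ gene, was tested at 08:00 alone, where it passed the filter through its LD libraries, and without it 13 of 48 comparisons were called (5 higher, 8 lower), for 4 members only as higher and for 3 only as lower. At 08:00, 5 of 9 members were called (3 higher, 2 lower in SD), where 17.7% of all tested loci were called (7.3% higher, 10.4% lower). At 12:00, 5 of 8 tested members were called (2 higher, 3 lower), against a background of 40.0% of loci (20.4% higher, 19.6% lower). No member was called at 16:00, where 0.0% of loci were called, although 1 of 8 members had an unadjusted p under 0.05, as had 31.0% of loci. DESeq2 also called 0 members at 16:00, where it called 5.01% of loci. That share is over 33422 loci with at least 1 count, against 23466 that passed the filter for edgeR, so the 2 shares are not alike. At 20:00, 1 of 8 members was called, as lower in SD, against 4.99% of loci (1.23% higher, 3.76% lower). At 00:00, 0 of 8 members were called by edgeR against 1.56% of loci (0.753% higher, 0.804% lower), and 3 had an unadjusted p under 0.05, as had 19.7% of loci. DESeq2 called 2 members at 00:00 and 5.47% of 33009 loci with at least 1 count. Of the 8 members tested by edgeR there, LOC_Os10g25290 alone gained a call. The other was LOC_Os07g05830, whose SD libraries of 00:00 held no counts. At 04:00, 3 of 8 members were called, all lower in SD, against 15.9% of loci (4.11% higher, 11.8% lower). Without LOC_Os07g05830, 4 of 8 members were called at 08:00 (3 higher, 1 lower). The median size of the members' log2 fold change at 12:00 was 1.44, beside 0.80 over all tested loci, and at 16:00 it was 0.27, beside 0.36.

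**Figure D1:**
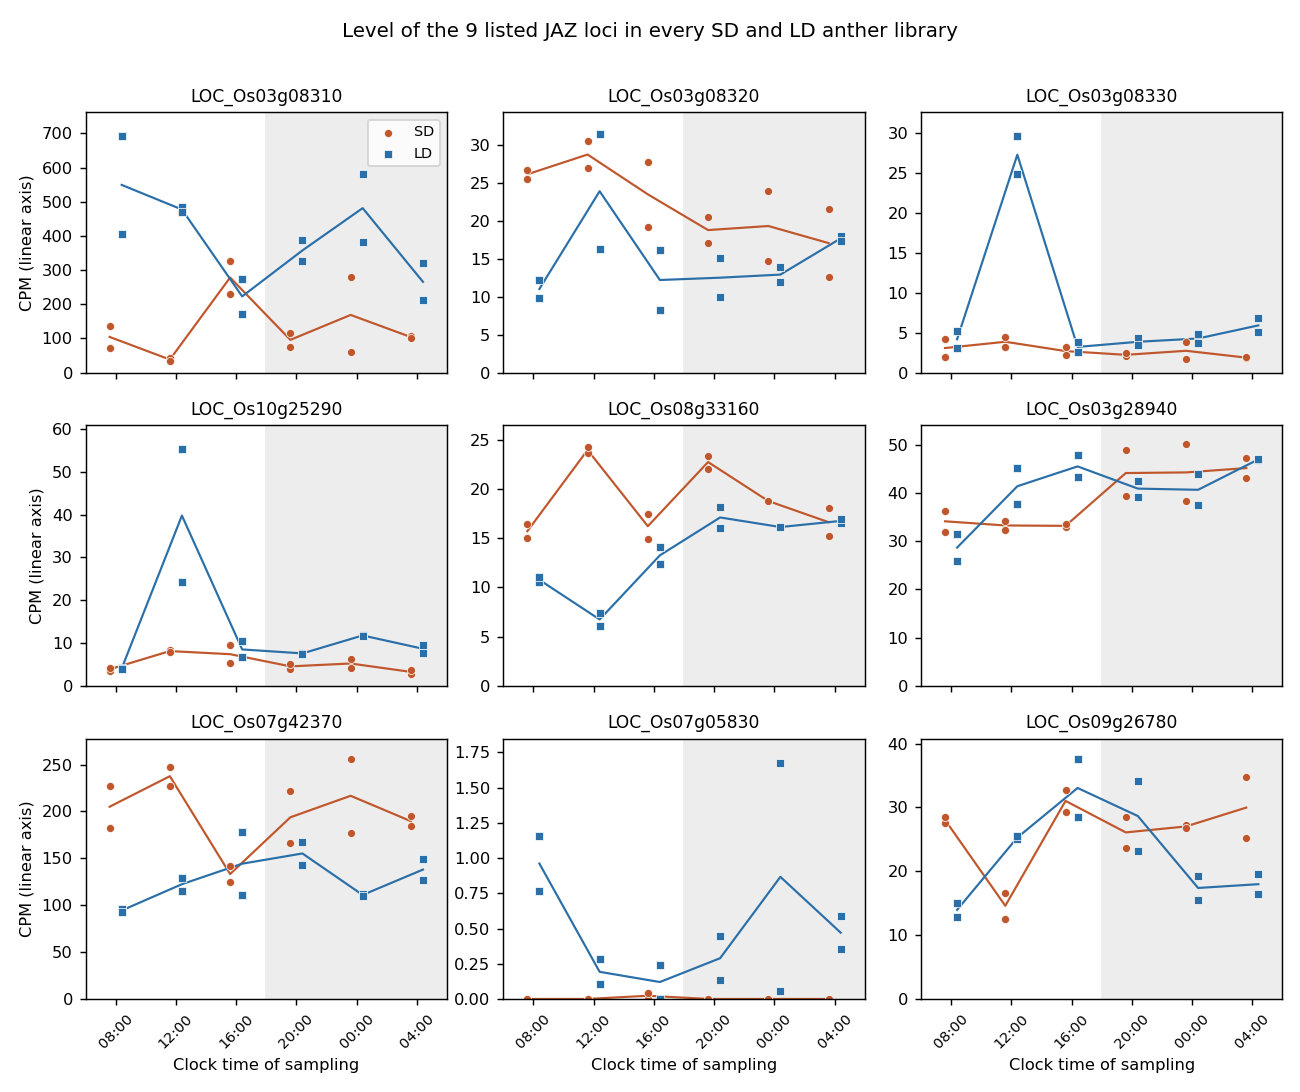
TMM-scaled CPM (linear axes from 0) of the 9 loci by clock time, with a point per library (circles SD, squares LD) and a line through the mean of 2 replicates, and grey behind the 3 night time points. LOC_Os03g08310 lies lower in SD except at 16:00, and the highest points of LOC_Os03g08330 (29.6 CPM) and LOC_Os10g25290 (55.3 CPM) are LD libraries of 12:00.

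LOC_Os03g08310 (TIFY11a, a JAZ gene of rice also known as OsJAZ9) was the member called most often, at 4 of 6 time points, each time lower in SD. In SD its level was 135 and 73.4 CPM at 08:00, 43.0 and 33.4 CPM at 12:00, 229 and 328 CPM at 16:00, 116 and 76.1 CPM at 20:00, 58.9 and 279 CPM at 00:00, and 106 and 102 CPM at 04:00. In LD it was 406 and 693 CPM at 08:00, 486 and 469 CPM at 12:00, 172 and 274 CPM at 16:00, 327 and 388 CPM at 20:00, 381 and 582 CPM at 00:00, and 211 and 320 CPM at 04:00. Both SD libraries lay below both LD libraries at every time but 16:00, where the groups overlapped, and the SD libraries of 00:00 stood far apart from each other.

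The largest difference of LOC_Os03g08310 was at 12:00, where it was 12.1-fold lower in SD (log2 fold change -3.60, SE 0.17, adjusted p = 2.09e-05). At 08:00 it was 5.22-fold lower in SD (log2 fold change -2.38, SE 0.38, adjusted p = 0.00621). At 16:00, the last sampling in daylight, the difference did not pass the test (log2 fold change 0.33, SE 0.29, adjusted p = 0.476). In the dark it was 3.76-fold lower in SD at 20:00 (adjusted p = 0.0212) and 2.59-fold lower at 04:00 (adjusted p = 0.00940). At 00:00 the log2 fold change of -1.49 had an SE of 0.68 and an adjusted p of 0.288. Without replicate 2 of SD 00:00 that value was -3.06 (adjusted p = 0.00656), and without replicate 1 of LD 00:00 it was -1.76 (adjusted p = 0.0261). The 4 calls were kept whichever library of their time point was left out, but in the fit of all 24 libraries the 04:00 call was lost (-1.35, adjusted p = 0.0611).

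In the order of its 12 groups, LOC_Os03g08310 was highest in LD 08:00 (549 ± 203 CPM), LD 00:00 (481 ± 142 CPM) and LD 12:00 (477 ± 12.1 CPM, each with the standard deviation of 2 replicates). Below these came LD 20:00, SD 16:00, LD 04:00, LD 16:00, SD 00:00, SD 08:00, SD 04:00 and SD 20:00, and the lowest was SD 12:00 (38.2 ± 6.84 CPM). Only 2 of the 11 steps in this order separated the libraries of neighbouring groups, that from LD 12:00 to LD 20:00 and that from SD 20:00 to SD 12:00. The SD anthers of 16:00 thus stood among the LD groups.

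LOC_Os03g08310 followed the pollen marker OsMATL from library to library. Over the 12 SD libraries Pearson's r of log2(CPM + 0.5) between them was 0.92, and over the 12 LD libraries it was 0.91, points that share sampling times and library composition. OsMATL was at 0.14 and 0.00 CPM in SD 12:00, against 79.3 and 87.6 CPM in LD 12:00, and at 10.2 and 25.7 CPM in SD 16:00, against 16.4 and 39.7 CPM in LD 16:00. In SD 00:00, whose libraries stood apart for LOC_Os03g08310, OsMATL was at 3.56 and 21.6 CPM. With WDA1, one of the 4 tapetum and anther wall markers, r was -0.83 in SD and -0.76 in LD, while for OsABCG15, OsLAP6 and HTH1 it lay between -0.48 and -0.41 in SD and between -0.25 and -0.08 in LD. The pollen list held this 1 marker alone, and the part of pollen content in the LOC_Os03g08310 values was not tested.

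**Figure D2:**
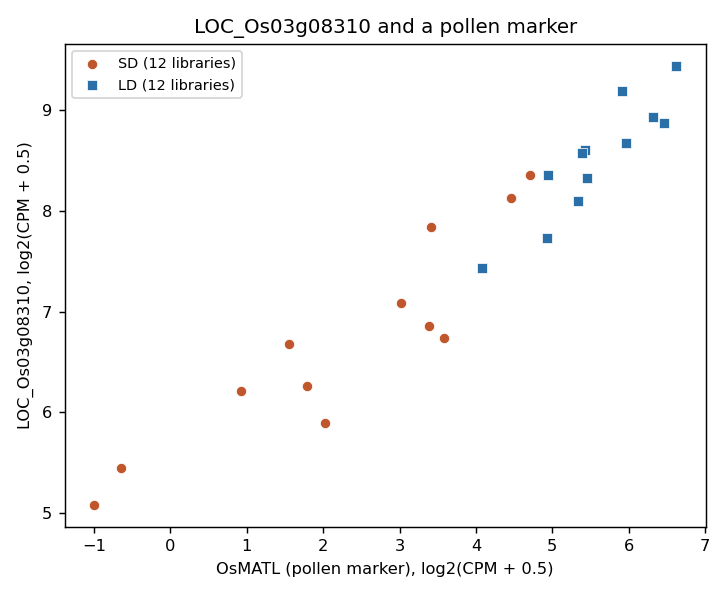
LOC_Os03g08310 against the pollen marker OsMATL, both as log2(CPM + 0.5), with a circle for each of 12 SD libraries and a square for each of 12 LD libraries. The points rise together within SD (r = 0.92) and within LD (r = 0.91).

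By the measure fixed for likeness, Pearson's r of log2(CPM + 0.5) over all 24 libraries and 21657 loci, the loci most like LOC_Os03g08310 were LOC_Os01g04090 and LOC_Os12g29605, each with r = 0.985. The sources used here gave neither a name.

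The pair listed as TIFY11b and TIFY11c, LOC_Os03g08320 and LOC_Os03g08330, are numbered next to LOC_Os03g08310 on chromosome 3. Reads that could map to several of these relatives were handled in a way that is not given in the sources used here, as was the use of strand, so the split of reads among them is uncertain.

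LOC_Os03g08320 was higher in SD at 08:00. SD libraries held 25.6 and 26.8 CPM at 08:00, 30.6 and 27.0 CPM at 12:00, 27.8 and 19.3 CPM at 16:00, 17.1 and 20.5 CPM at 20:00, 14.7 and 24.0 CPM at 00:00, and 12.6 and 21.6 CPM at 04:00. LD libraries held 12.3 and 9.81 CPM at 08:00, 31.6 and 16.3 CPM at 12:00, 16.2 and 8.22 CPM at 16:00, 15.1 and 9.97 CPM at 20:00, 13.9 and 11.9 CPM at 00:00, and 18.04 and 17.4 CPM at 04:00. The SD libraries lay above the LD libraries at 08:00, 16:00, 20:00 and 00:00, and the groups overlapped at 12:00 and 04:00. Its log2 fold change at 08:00 was 1.25 (SE 0.20, adjusted p = 0.00576), or 2.38-fold higher in SD, a call lost without replicate 2 of LD 08:00 (1.09, adjusted p = 0.0538). At 16:00 the log2 fold change was 0.95 (SE 0.37, adjusted p = 0.164), and without replicate 1 of LD 16:00 it was 1.52 (adjusted p = 0.0414).

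LOC_Os03g08330 and its neighbour LOC_Os03g08320 were called at different times. Within a photoperiod they varied together. Pearson's r on the log2 scale was 0.77 over the 12 SD libraries and 0.78 over the 12 LD libraries, which share time points. Both had their highest mean at 12:00 in SD and in LD. LOC_Os03g08320 was not called at 12:00 (log2 fold change 0.31, adjusted p = 0.386) or 04:00 (-0.08, adjusted p = 0.838). LOC_Os03g08330 was lower in SD at 12:00 and 04:00. Under SD its level was 4.16 and 1.99 CPM at 08:00, 4.45 and 3.26 CPM at 12:00, 3.24 and 2.15 CPM at 16:00, 2.05 and 2.39 CPM at 20:00, 1.64 and 3.81 CPM at 00:00, and 1.76 and 1.98 CPM at 04:00. Under LD its level was 5.22 and 3.12 CPM at 08:00, 29.6 and 24.9 CPM at 12:00, 3.82 and 2.60 CPM at 16:00, 4.28 and 3.43 CPM at 20:00, 4.80 and 3.73 CPM at 00:00, and 5.03 and 6.78 CPM at 04:00. The LD libraries of 12:00 stood far above all other libraries of either photoperiod. At 12:00 the locus was 6.82-fold lower in SD (log2 fold change -2.77, SE 0.21, adjusted p = 0.000101) and at 04:00 it was 3.20-fold lower (log2 fold change -1.68, SE 0.27, adjusted p = 0.0102). The call at 04:00 was lost without replicate 1 of LD 04:00 (-1.88, adjusted p = 0.0557) or replicate 2 (-1.44, adjusted p = 0.0800). Counts behind these values ran from 37 to 106 a library in SD and from 54 to 527 in LD.

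LOC_Os10g25290 (TIFY11d, known also as OsJAZ12) had a like pattern and was lower in SD at the same times. In SD anthers it stood at 3.53 and 4.19 CPM at 08:00, 8.30 and 7.93 CPM at 12:00, 5.32 and 9.46 CPM at 16:00, 3.87 and 5.20 CPM at 20:00, 4.09 and 6.34 CPM at 00:00, and 2.79 and 3.70 CPM at 04:00. In LD anthers it stood at 4.25 and 3.81 CPM at 08:00, 55.3 and 24.3 CPM at 12:00, 6.61 and 10.4 CPM at 16:00, 7.71 and 7.43 CPM at 20:00, 11.9 and 11.7 CPM at 00:00, and 9.60 and 7.72 CPM at 04:00. The LD libraries of 12:00 were again the highest of all, though they differed from each other by more than those of any other LD time. The locus was 4.75-fold lower in SD at 12:00 (log2 fold change -2.25, SE 0.38, adjusted p = 0.00284) and 2.72-fold lower at 04:00 (log2 fold change -1.44, SE 0.24, adjusted p = 0.0109). The call at 04:00 was lost without replicate 1 of LD 04:00 (-1.28, adjusted p = 0.0943) or replicate 2 (-1.59, adjusted p = 0.0578). At 00:00 the libraries did not overlap, but the log2 fold change of -1.15 had an adjusted p of 0.117, which became 0.0164 with a value of -1.55 without replicate 2 of SD 00:00. Over the 12 LD libraries, r of log2(CPM + 0.5) between LOC_Os03g08330 and LOC_Os10g25290 was 0.82, and over the 12 SD libraries 0.46, both across libraries that share their time points.

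LOC_Os08g33160 (TIFY6a) ran the other way at noon, higher in SD. In SD its level was 14.98 and 16.4 CPM at 08:00, 23.6 and 24.3 CPM at 12:00, 14.9 and 17.5 CPM at 16:00, 23.4 and 22.1 CPM at 20:00, 18.8 and 18.7 CPM at 00:00, and 18.1 and 15.2 CPM at 04:00. In LD it was 10.5 and 11.02 CPM at 08:00, 7.42 and 6.05 CPM at 12:00, 14.1 and 12.4 CPM at 16:00, 16.0 and 18.2 CPM at 20:00, 16.1 and 16.2 CPM at 00:00, and 16.5 and 17.0 CPM at 04:00. Replicates stayed close throughout, SD lay above LD at all times but 04:00, and the LD libraries of 12:00 were the lowest of the 24. At 12:00 the locus was 3.68-fold higher in SD (log2 fold change 1.88, SE 0.16, adjusted p = 0.00019), a call kept without any of the 4 libraries. At 08:00 the log2 fold change was 0.55 (adjusted p = 0.0710).

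LOC_Os03g28940 was never called. Its level ran from 31.9 to 50.2 CPM with a median of 37.3 CPM in SD, and from 25.9 to 47.8 CPM with a median of 42.9 CPM in LD. Its log2 fold changes lay between -0.45 at 16:00 (SE 0.11, adjusted p = 0.0865) and 0.26 at 08:00 (SE 0.18, adjusted p = 0.333), and none passed the test.

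**Figure D3:**
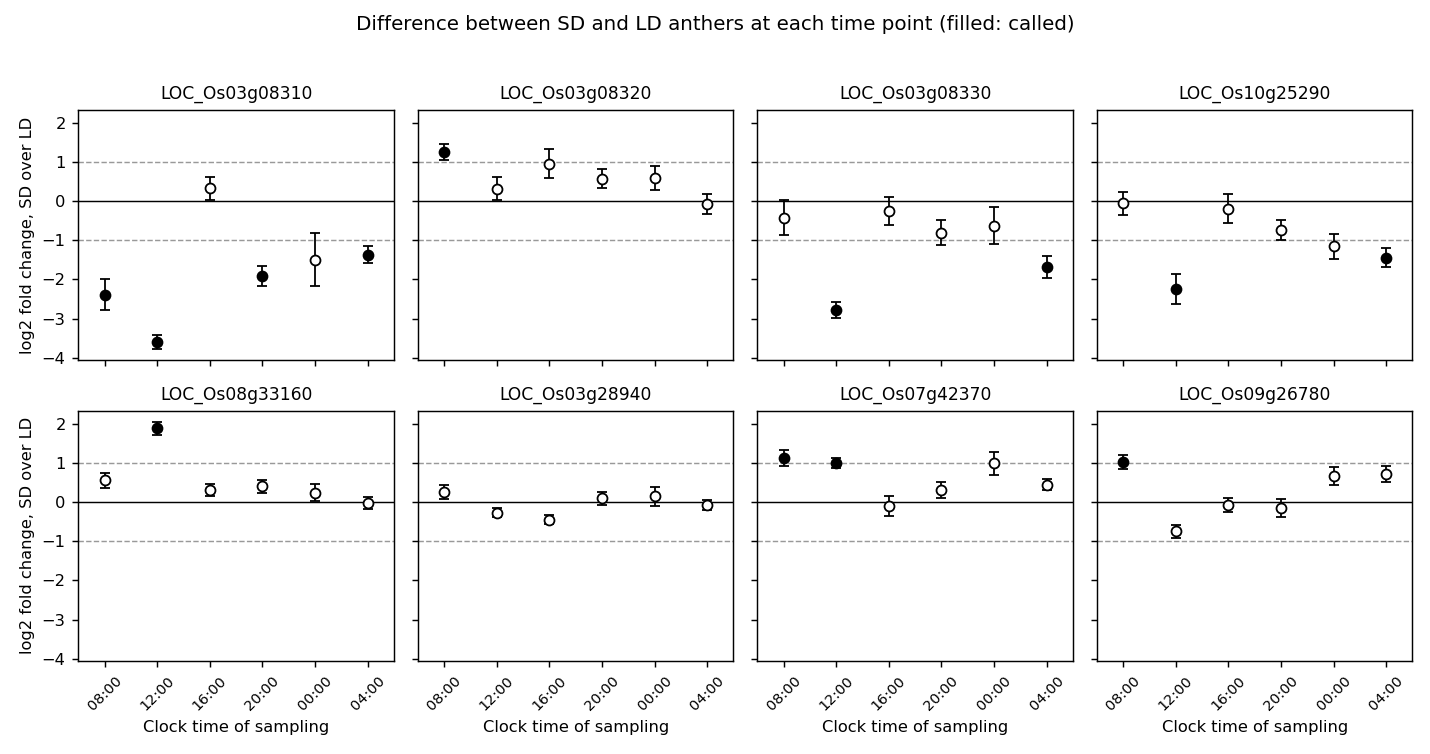
Log2 fold change of SD over LD at each clock time for the 8 members tested at all 6 times, with bars of 1 SE from the edgeR fit on 4 libraries, dashed lines at a 2-fold difference, and filled points where a member was called. The filled points of 4 loci lie above 0 and those of 3 loci below, and none is filled at 16:00 or 00:00.

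LOC_Os07g42370 was higher in SD in the morning and at noon. SD libraries held 182 and 228 CPM at 08:00, 248 and 227 CPM at 12:00, 142 and 124 CPM at 16:00, 166 and 222 CPM at 20:00, 256 and 177 CPM at 00:00, and 185 and 195 CPM at 04:00. LD libraries held 96.3 and 92.4 CPM at 08:00, 116 and 129 CPM at 12:00, 178 and 111 CPM at 16:00, 168 and 143 CPM at 20:00, 112 and 110 CPM at 00:00, and 149 and 127 CPM at 04:00. The SD libraries lay above the LD libraries at 08:00, 12:00, 00:00 and 04:00, and the groups overlapped at 16:00 and 20:00.

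The difference of LOC_Os07g42370 was close to the 2-fold limit wherever it was called. It was 2.18-fold higher in SD at 08:00 (log2 fold change 1.13, SE 0.20, adjusted p = 0.00815) and 2.01-fold higher at 12:00 (log2 fold change 1.005, SE 0.12, adjusted p = 0.000757). The 08:00 call was lost without replicate 2 of SD 08:00 (0.96), replicate 1 of LD 08:00 (adjusted p = 0.0576) or replicate 2 of LD 08:00 (adjusted p = 0.0790). The 12:00 call was lost without replicate 1 of SD 12:00 (0.95) or replicate 1 of LD 12:00 (0.92), where the fold fell under 2, and the adjusted p stayed under 0.05. At 00:00 the log2 fold change was 0.99 (SE 0.28, adjusted p = 0.130), and without replicate 2 of SD 00:00 it was 1.18 (adjusted p = 0.0143).

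LOC_Os03g08310 and LOC_Os07g42370, the members that held the most reads, ran against each other from library to library. Over the 12 SD libraries r of log2(CPM + 0.5) between them was -0.88, and over the 12 LD libraries -0.72, where both values of a point come from 1 library and its depth. The counts of LOC_Os03g08310 divided by those of LOC_Os07g42370 gave a ratio of 0.147 to 2.63 in SD (median 0.549) and of 0.969 to 7.50 in LD (median 3.06). As transcript lengths were not used, this ratio compares libraries and not the levels of the 2 genes. LOC_Os03g08310 held 9.06% to 58.2% of the reads of the 9 loci in SD (median 25.6%) and 36.5% to 81.2% in LD (median 61.2%). The summed level of the 9 loci was 368 to 574 CPM in SD (median 423) and 472 to 853 CPM in LD (median 609). LOC_Os07g42370 also stood against the pollen marker OsMATL, with r = -0.78 in SD and r = -0.77 in LD, and the part of cell type content in this opposition was not tested.

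**Figure D4:**
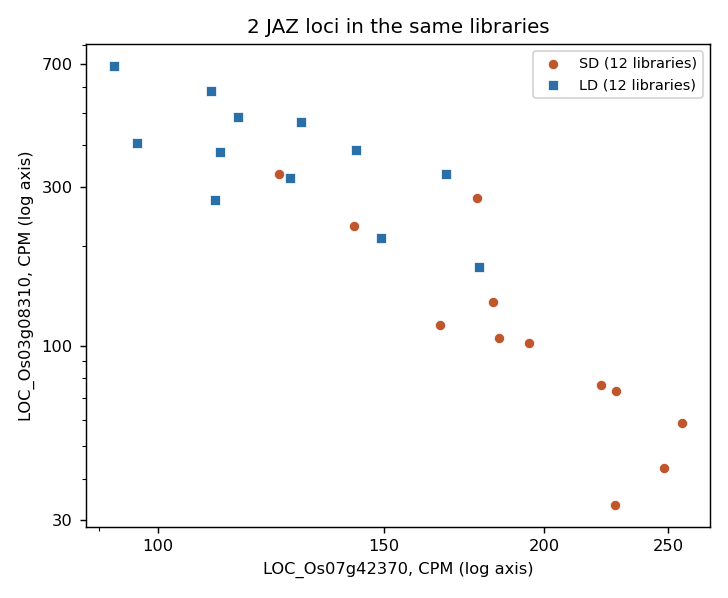
CPM of LOC_Os03g08310 against CPM of LOC_Os07g42370 in the same library (both log axes), with circles for 12 SD and squares for 12 LD libraries. The points fall from the upper left, where LD 08:00 lies at up to 693 CPM of LOC_Os03g08310, to the lower right, where SD 12:00 lies at 33.4 and 43.0 CPM.

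LOC_Os07g05830, the locus whose annotation is not that of a JAZ gene, was almost confined to LD. SD libraries held 1 count in all, in replicate 2 of 16:00, and the other 11 held 0. LD libraries held 15 and 20 counts at 08:00, 5 and 2 counts at 12:00, 0 and 5 counts at 16:00, 3 and 10 counts at 20:00, 1 and 31 counts at 00:00, and 7 and 12 counts at 04:00, so 11 of 12 had a count and 111 counts were found in all. Corrected for library size, LD over SD gave a ratio of 125 with an exact 95% interval of 22.0 to 4987 that covers counting error only.

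Only at 08:00 did LOC_Os07g05830 pass the filter on low counts, by its LD libraries, and it was called there (adjusted p = 0.00818), a call lost without replicate 1 (adjusted p = 0.0518) or replicate 2 (adjusted p = 0.103) of LD 08:00. Set against a floor of 3 counts per library, it was at least 6.90-fold lower in SD at 08:00 and at least 3.65-fold lower at 04:00. No bound is given for 12:00, 20:00 or 00:00, where 1 of the LD libraries held 3 counts or fewer. A share of its reads could come from relatives or overlapping loci, which the counts do not resolve.

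LOC_Os09g26780 (TIFY10c, known also as OsJAZ8, a repressor of jasmonate-induced resistance to bacterial blight in rice) changed direction over the day. Under SD its level was 27.6 and 28.5 CPM at 08:00, 16.6 and 12.6 CPM at 12:00, 32.8 and 29.3 CPM at 16:00, 23.6 and 28.6 CPM at 20:00, 27.3 and 26.8 CPM at 00:00, and 25.2 and 34.8 CPM at 04:00. Under LD its level was 15.05 and 12.9 CPM at 08:00, 25.0 and 25.6 CPM at 12:00, 37.6 and 28.5 CPM at 16:00, 34.1 and 23.2 CPM at 20:00, 19.2 and 15.6 CPM at 00:00, and 19.5 and 16.4 CPM at 04:00. The SD libraries lay above the LD libraries at 08:00, 00:00 and 04:00 and below them at 12:00, and the groups overlapped at 16:00 and 20:00.

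At 08:00 LOC_Os09g26780 was 2.02-fold higher in SD (log2 fold change 1.01, SE 0.18, adjusted p = 0.00900), and at 12:00 it was 1.68-fold lower (log2 fold change -0.74, SE 0.16, adjusted p = 0.00831), under the 2-fold limit. At 04:00 it was 1.64-fold higher (log2 fold change 0.72, SE 0.19, adjusted p = 0.0393), also under that limit. The 08:00 call was lost without replicate 2 of SD 08:00 (0.995, under the limit) or replicate 2 of LD 08:00 (0.89, adjusted p = 0.0839).

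Averaged over the day in a fit of all 24 libraries, 7 of 9 members differed between photoperiods (3 higher, 4 lower in SD), where 43.5% of all tested loci did (21.5% higher, 22.0% lower). Without LOC_Os07g05830 it was 6 of 8 (3 higher, 3 lower). LOC_Os03g08310 was 3.38-fold lower in SD (log2 fold change -1.76, SE 0.35, adjusted p = 0.000429), LOC_Os03g08330 2.14-fold lower (-1.10, SE 0.26) and LOC_Os10g25290 1.98-fold lower (-0.99, SE 0.22). LOC_Os07g42370 was 1.54-fold higher (log2 fold change 0.62, SE 0.13, adjusted p = 0.000755), LOC_Os03g08320 1.51-fold higher (0.59, SE 0.16) and LOC_Os08g33160 1.45-fold higher (0.53, SE 0.14). LOC_Os07g05830 was the fourth locus lower in SD (adjusted p = 8.04e-06). It held 1 count in all SD libraries and passed the filter on low counts by its LD libraries, so this p is not independent of that filter. The averages of LOC_Os03g28940 (-0.06, adjusted p = 0.605) and LOC_Os09g26780 (0.23, adjusted p = 0.263) did not pass. All 7 calls were kept without any of the 24 libraries.

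Whether the photoperiod difference itself changed with time was tested by the interaction of photoperiod and time point. It passed for 6 of 9 members, against 48.5% of all tested loci. The smallest adjusted p was that of LOC_Os08g33160 (9.95e-05), followed by LOC_Os09g26780 (0.00149), LOC_Os03g08330 (0.00892), LOC_Os03g08310 (0.00894), LOC_Os10g25290 (0.0129) and LOC_Os07g42370 (0.0203). The test did not pass for LOC_Os03g08320 (adjusted p = 0.253), LOC_Os03g28940 (adjusted p = 0.0674) or LOC_Os07g05830 (adjusted p = 0.802). Leaving out replicate 2 of SD 12:00 ended the call of LOC_Os03g08330 (adjusted p = 0.0606) and of LOC_Os10g25290 (adjusted p = 0.0555), and leaving out replicate 2 of SD 16:00 ended that of LOC_Os07g42370 (adjusted p = 0.0645). LOC_Os03g28940 passed without replicate 1 of SD 20:00 (adjusted p = 0.0450) or replicate 2 of SD 00:00 (adjusted p = 0.0299).

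Within photoperiods, 2 of 8 tested members varied over the day in SD anthers, where 16.5% of tested loci did, and 6 of 9 in LD anthers, where 44.3% did. In SD these were LOC_Os09g26780 (adjusted p = 0.0370), with a peak of 31.0 CPM at 16:00 and a trough of 14.6 CPM at 12:00, and LOC_Os08g33160 (adjusted p = 0.0448), with a peak of 23.9 CPM at 12:00 and a trough of 15.7 CPM at 08:00. Neither SD call was firm, since that of LOC_Os08g33160 was lost in 10 and that of LOC_Os09g26780 in 6 of the 12 fits that left out 1 library. LOC_Os03g08310 ranged in SD from a mean of 38.2 CPM at 12:00 to 278 CPM at 16:00, with an adjusted p of 0.0619, and without replicate 1 or replicate 2 of SD 00:00 its adjusted p was 0.00417 or 0.00349.

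In LD, LOC_Os03g08330 peaked at 12:00 with a mean of 27.3 CPM and had its trough of 3.21 CPM at 16:00 (adjusted p = 0.00027). LOC_Os10g25290 peaked at 12:00 with 39.8 CPM and was lowest at 08:00 with 4.03 CPM (adjusted p = 0.00110). LOC_Os08g33160 was lowest at 12:00 with 6.73 CPM and highest at 20:00 with 17.1 CPM (adjusted p = 0.000892). These 3 and LOC_Os09g26780, which peaked at 16:00 with 33.0 CPM and was lowest at 08:00 with 14.0 CPM (adjusted p = 0.00839), kept their LD call whichever of the 12 libraries was left out. LOC_Os03g08310 (adjusted p = 0.0438) lost it in 9 of 12 such fits and LOC_Os03g28940 (adjusted p = 0.0237) in 5 of 12. A larger number of members passing in LD than in SD is no test of a difference between photoperiods, which the interaction gives.

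The study's sheets annotate 4 other loci as jasmonate or ZIM genes. The averages of all 4 over the day were called lower in SD, as were those of 22.0% of all tested loci. Among them LOC_Os06g21760 was near the floor and passed the filter on low counts by its LD libraries. LOC_Os03g27900, a ZIM motif family protein, was at 0 to 5.19 CPM in SD (median 0.54) and at 5.37 to 48.8 CPM in LD (median 22.8). The locus was called as lower in SD by day at 08:00 and 12:00 and by night at 20:00 and 04:00. Its SD libraries held 15 and 1 counts at 08:00, 1 and 0 at 12:00, and 58 and 0 at 04:00. At these 3 times it passed the filter on low counts by its LD libraries, so those calls are not independent of that filter. It was not called at 16:00 (log2 fold change -1.85, adjusted p = 0.167), where no locus was called. Nor was it called at 00:00 (-3.01, adjusted p = 0.162), where 1.56% of loci were. Its SD libraries lay below its LD libraries at both times. LOC_Os09g23660, also a ZIM motif family protein and on chromosome 9 by its locus ID, as is TIFY6b in RefSeq, was called at 04:00 alone, with 17.6 and 19.9 CPM in SD, against 48.2 and 45.1 CPM in LD (log2 fold change -1.33, SE 0.13, adjusted p = 0.00314).

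Of the enzymes, LOC_Os12g37260, annotated as a chloroplast lipoxygenase, the enzyme class that opens jasmonate synthesis, was lower in SD at 08:00, 00:00 and 04:00 and higher at 12:00. At 04:00 it was at 2.05 and 4.36 CPM in SD, against 25.6 and 17.1 CPM in LD (log2 fold change -2.78, SE 0.38, adjusted p = 0.00670). At 12:00 it was at 10.3 and 10.99 CPM in SD, against 2.08 and 4.18 CPM in LD (log2 fold change 1.81, SE 0.32, adjusted p = 0.00321). LOC_Os06g21760, annotated as a jasmonate O-methyltransferase, the enzyme class that makes methyl jasmonate, stayed at 0 to 0.41 CPM in SD and 0.05 to 0.63 CPM in LD and was not tested at single time points. Tested in the average, where it passed the filter on low counts by its LD libraries, it was lower in SD (log2 fold change -1.02, adjusted p = 0.0393). Neither the interaction (adjusted p = 0.590) nor the change over the day in LD (adjusted p = 0.149) passed.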

How the data were processed

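Per the study's methods, the Ion Proton reads were cleaned by removing those with 20% of bases under quality 13 and mapped with MapSplice to the MSU Nipponbare genome. Read counts as deposited by the authors are whole numbers per locus and library, not normalized. How reads were assigned to loci, by strand or when several loci matched, is not given in the sources used here.

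The members, gene lists and tests were chosen with earlier results of these data known. All 9 members were named, and a member called at 1 or more time points had its value printed for every library. For each time point, edgeR 4.0.16 in R 4.3.3 compared its 2 SD with its 2 LD libraries (filterByExpr, TMM, quasi-likelihood F-test, Benjamini-Hochberg adjustment over all loci tested, absolute log2 fold change of at least 1, positive for higher in SD). The SE follows from the fold change and F. The average, the interaction and the change over the day were tested in the same way on 24, 24 and 12 libraries, with no fold limit. With 2 against 2 libraries a two-sided exact permutation test of 1 value cannot go below p = 0.333, so the tests rest on spread shared over loci, and p-values measure the spread between these libraries.

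Totals of 18043740 to 27529649 counts put 3 counts, the floor used for a count of 0, at 0.105 to 0.174 CPM. Alternatives were DESeq2 1.42.0, RLE size factors, library totals, no filter, a single fit of 24 libraries, a replicate block, no fold limit and each library left out. The steps were also run on simulated data with the same spread set for every locus. This checks that the steps run, and does not measure their error at the replicate spread of these libraries. No sequence was used here.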

Additional observations from a re-analysis of the deposited data

Results flagged for a closer look

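For 6 of 9 loci the difference between SD and LD changed with the time point by the interaction test in edgeR. The same test passed for 48.5% of all tested loci. The calls of LOC_Os03g08330, LOC_Os10g25290 and LOC_Os07g42370 were each lost in 1 of the 24 fits that left out 1 library. LOC_Os08g33160 (adjusted p = 9.95e-05) was 3.68-fold higher in SD at 12:00, and its log2 fold change at 04:00 was -0.03. LOC_Os09g26780 (adjusted p = 0.00149) had a log2 fold change of 1.01 at 08:00 and of -0.74 at 12:00. LOC_Os03g08330 (adjusted p = 0.00892) and LOC_Os10g25290 (adjusted p = 0.0129) had their largest differences at 12:00, with log2 fold changes of -2.77 and -2.25, and values of -0.25 and -0.19 at 16:00. LOC_Os03g08310 (adjusted p = 0.00894) had a log2 fold change of -3.60 at 12:00 and of 0.33 at 16:00. LOC_Os07g42370 (adjusted p = 0.0203) had values of 1.13 at 08:00 and -0.11 at 16:00.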

How the results depend on the processing

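Of the values of single members that were called in any setting, none turned its direction, 621 kept their side of the threshold under an alternative, 55 lost a call and 43 gained one. The number of members called at 16:00 was 0 and became 1 with the replicate block. At 00:00 it was 0 and became 2 with DESeq2, with the fit of 24 libraries or with the block. With DESeq2 or the fit of 24 libraries these were LOC_Os10g25290 and LOC_Os07g05830. With the block they were LOC_Os03g08310 and LOC_Os10g25290. At 04:00 DESeq2 called 4, the 3 called by edgeR and LOC_Os07g05830. The number varying over the day in SD was 2 and became 5 with DESeq2, 5 without the filter on low counts (1 of the 2 shared) and 1 with the block (LOC_Os10g25290, adjusted p = 0.0303, and neither of the 2). The shares of all loci under these settings are not given here, so these counts show nothing particular to the members. Without the filter, the edgeR adjusted p of LOC_Os03g08310 in SD went from 0.0619 to 1.18e-38, so that setting is a poor guide. Leaving out 1 library gave 1 to 5 members at 08:00, 0 to 1 at 16:00, 0 to 3 at 00:00, 1 to 4 at 04:00, and 0 to 6 varying over the day in SD. It gave 4 to 5 members at 12:00, 1 at 20:00, 7 for the average, 4 to 7 for the interaction, and 4 to 7 varying over the day in LD. The 24-library fit left 2 members called at 04:00, as LOC_Os03g08310 lost its call (adjusted p = 0.0611). LOC_Os07g42370 lost its 12:00 call with DESeq2, RLE size factors, no filter or the 24-library fit, as its log2 fold change fell just under the limit (0.96 in the 24-library fit). With library totals in place of TMM the median log2 fold change of all loci at 12:00 was 0.27, against -0.01, and the 5 members called there were the same. The cause of these shifts was not tested. Replicate numbers gave no steady sign of pairing libraries. The correlation of deviations between same-numbered libraries was negative for 08:00 (-0.34), 20:00 (-0.21) and 04:00 (-0.12). It was positive for 12:00 (0.06), 16:00 (0.34) and 00:00 (0.24), so pairing at single times was not settled. The times over 0.1, 16:00 and 00:00, are those where the block added calls, and over all loci it called 2078 at 16:00 and 3021 at 00:00, against 0 and 364 without it. With the replicate block the count was 5 at 08:00, 5 at 12:00, 1 at 20:00 and 3 at 04:00, as without it. A crossed pairing, chosen after seeing the data for the 3 times under -0.1, left 5 members called for 08:00, 1 for 20:00 and 3 for 04:00. With 2 libraries a group, a locus at a few CPM such as LOC_Os03g08330 rests on 37 to 106 counts in an SD library, and differences under 2-fold were not called.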
